A study of Drosophila melanogaster with 3 samples.

Results

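The genes described here are the translation initiation factor genes of Drosophila melanogaster, and the question asked of them is whether chromatin at their start sites came down with the fly protein CG10274. They were chosen by name, as the protein-coding genes of the Ensembl annotation whose symbol begins with eIF, apart from a single gene that the selection leaves out, which gave 44 of 13968 protein-coding genes. Chromatin immunoprecipitation followed by sequencing (ChIP-seq, which reads the DNA recovered with a protein) was carried out on whole embryos of both sexes, aged 0 to 24 h, from 1 transgenic line that expresses CG10274 with GFP fused to its C terminus, and the antibody was directed at GFP. There were 3 biological replicates of this 1 group and no other group, and the control data set that the labels name was not analysed here. Chromatin was fragmented by sonication to between 200 and 800 bp. Whole embryos of all these ages were pooled, so each peak is a summary over many cell types and stages. A gene was credited with a peak where the summit lay within 500 bp of any of its annotated transcription start sites (TSSs). The 44 genes have 62 TSSs between them, and 29 of the genes have 1 TSS.

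Translation of most messenger RNAs begins when the small ribosomal subunit, carrying eIF1, eIF1A, eIF3, eIF5 and the initiator tRNA held by eIF2, is brought to the cap of the message by eIF4E, eIF4G and the helicase eIF4A, and then scans to a start codon. GTP hydrolysis by eIF2 is stimulated by eIF5, the exchange factor eIF2B recharges eIF2 with GTP, and the GTPase eIF5B joins the large subunit. eIF6 binds the free large subunit and keeps it from pairing too early. In the fly embryo the cap-binding protein eIF4EHP acts the other way, as a repressor that blocks translation of maternal messages such as caudal and hunchback.

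Sequence at or beside the summit is shown for 6 of the 8 initiation factor peaks described below, to let the shared and unshared letters be seen, and that of eIF6 and eIF3c is not shown. All are read from the RefSeq copy of the dm6 genome on the strand of the initiation factor gene, and all of these genes but eIF1 lie on the minus strand. For eIF4EHP (chr3R:24109217-24109317), eIF1 (chr3L:3222964-3223064) and eIF3h (chr2L:5052469-5052569) the summit and 50 bases on either side are given. For eIF2Bepsilon (chrX:1922875-1922980) and eIF3a (chr3R:4433896-4433964) the bases between the facing TSSs of the gene and its neighbour are given, and for eIF5B (chr3L:3460789-3460813) a stretch of 25 bases at the edge of the 50 bases beside the summit. Capitals mark matches on either strand to TATCGATA or its core ATCGAT (the DNA replication-related element, which the factor DREF binds), to GGTCACAC (a core promoter motif of flies known as motif 1), to CCCTA and to GCGCTA (letters frequent at the highest combined summits).
eIF4EHP: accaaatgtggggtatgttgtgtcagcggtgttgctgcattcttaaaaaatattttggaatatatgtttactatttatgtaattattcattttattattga
eIF1: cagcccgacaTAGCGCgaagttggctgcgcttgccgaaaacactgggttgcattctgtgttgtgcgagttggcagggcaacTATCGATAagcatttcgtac
eIF2Bepsilon: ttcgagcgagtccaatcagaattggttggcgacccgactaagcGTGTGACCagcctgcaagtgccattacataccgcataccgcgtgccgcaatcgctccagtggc
eIF5B: aaccaactgCCCTAtgtctgatgag
eIF3a: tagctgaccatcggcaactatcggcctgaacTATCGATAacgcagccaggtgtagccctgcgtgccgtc
eIF3h: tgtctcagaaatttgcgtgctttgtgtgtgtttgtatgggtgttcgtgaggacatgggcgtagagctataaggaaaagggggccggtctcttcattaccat
The whole of TATCGATA stands in the eIF1 and eIF3a stretches. Motif 1 stands in the eIF2Bepsilon stretch, read from the other strand. The eIF4EHP and eIF3h stretches hold none of these motifs.

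The deposited peaks came as 3 replicate lists and a list called on the pooled replicates, each of 30000 entries, and a combined list. The combined list holds the 2988 peaks kept by the irreproducible discovery rate (IDR), a filter on agreement of rank. At each of the 8 initiation factor peaks described below, rank and score were the same in the combined and pooled lists. Counts from these lists are therefore not independent of each other. Read totals are not part of the lists, so the depth behind each replicate is unknown. The replicate and pooled lists are long, and the authors describe them as holding peaks and background together. A place far down a list is therefore given here as a rank and not as binding. Replicate 3 stood apart: 21.3% of the combined peaks had no overlapping entry in its list, against 1.87% in replicate 1 and 1.07% in replicate 2. Relative scores are used to set replicates side by side: the authors' score of the best overlapping entry in a replicate is divided by the median score, in the same replicate, of the 2292 combined peaks found in all 3 lists. A typical combined peak, below, means this median, which leaves out combined peaks that any replicate list lacks.

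In the combined list 8 of the 44 initiation factor genes (18.2%) had a peak, against 11.1% of all protein-coding genes. The genes were eIF1, eIF5B, eIF2Bepsilon, eIF3a, eIF3c, eIF3h, eIF4EHP and eIF6. Each of the roles described below held at least 1 of them, though 1 role consists of eIF6 alone. Where only the nearest gene is credited, eIF6 and eIF4EHP, the only ones of their roles, are not kept. In the pooled list 23 of the 44 genes (52.3%) had an entry, against 42.6% of all protein-coding genes. Replicates differed by far more than this margin. The replicate 1 list credited 30 of the genes (68.2%), against 49.7% of protein-coding genes, the replicate 2 list 16 (36.4%), against 36.8%, and the replicate 3 list 4 (9.09%), against 23.5%. The initiation factor genes were thus above the share of all protein-coding genes in 1 replicate, level with it in another and below it in the third. When each replicate was held to its 2988 highest entries, 9 of the genes (20.5%) were credited in replicate 1, against 11.1% of protein-coding genes, 8 (18.2%) in replicate 2, against 10.6%, and 4 (9.09%) in replicate 3, against 7.93%. The margin over all protein-coding genes was thus smallest in replicate 3 among these top entries. No test was made, because there is 1 group and the genes were chosen by name with earlier results known.

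**Figure D1:**
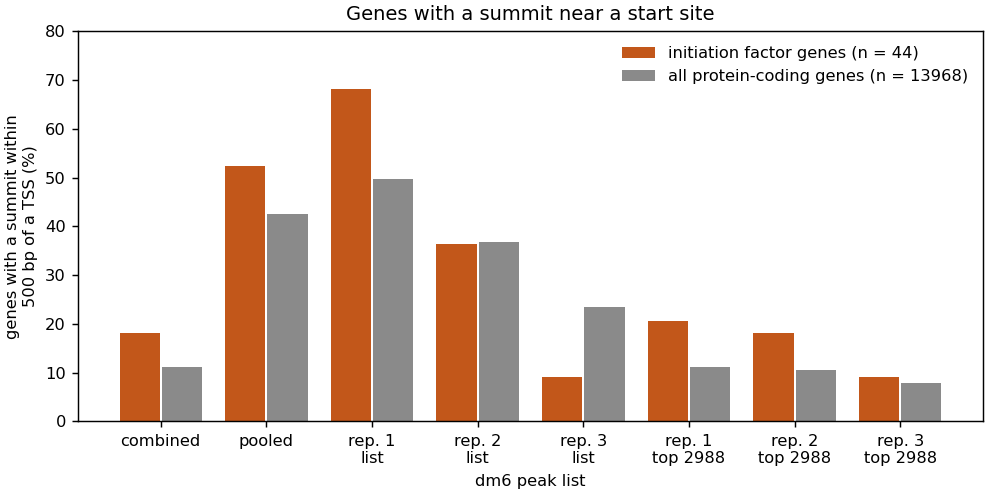
Percent of the 44 initiation factor genes (left bar of each pair) and of the 13968 protein-coding genes (right bar) whose TSS has a summit within 500 bp, for the combined, pooled and replicate lists and for the 2988 highest entries of each replicate. In the combined list the shares are 18.2% and 11.1%, and in the whole list of replicate 3 they are 9.09% and 23.5%.

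Among the 9 genes that act on the small subunit, select the start codon or join the subunits, 2 had a combined peak, 7 a pooled entry, 8 an entry in replicate 1, 3 in replicate 2 and 1 in replicate 3. eIF1 (FBgn0035423, chr3L:3223341-3224650, plus strand), which keeps the scanning subunit from settling on a wrong codon, had the higher-ranked peak of the pair. It covered chr3L:3222885-3223154 and ranked 403 of the combined list. The relative score was 1.44 in replicate 1 and 2.83 in replicate 2, with no overlapping entry in replicate 3. The peak was thus above the typical combined peak in both replicates that listed it, but unequally so. The summit lay 327 bp upstream of the eIF1 TSS and 54 bp from that of RpL28, a gene for a protein of the large ribosomal subunit, which is transcribed the other way from a TSS 381 bp away from that of eIF1. Replicate summits stood at -350 and -338 from the eIF1 TSS (negative is upstream), so the RpL28 TSS was the nearer to the peak in every list that held it. Separate low-ranked summits lay on the eIF1 side, at -44 in replicate 1 (rank 6389, relative score 0.414) and at -102 in the pooled list (rank 24479).

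The eIF5B peak (chr3L:3460561-3460964, in a gene of the minus strand at chr3L:3428658-3460977, FBgn0026259) ranked 1284. Its relative scores of 0.946, 1.07 and 0.983 in replicates 1, 2 and 3 averaged 0.999 ± 0.0628 (SD, n = 3). This was the smallest spread of the 4 initiation factor peaks that all 3 replicates listed, at the level of a typical combined peak. The summit lay 160 bp upstream of the nearest eIF5B TSS and 214 bp downstream of the most upstream one, within an annotated 5′ UTR, and the nearest TSS of another gene, CG46463, was 552 bp away. The eIF5B peak is thus credited to its own gene by position.

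eIF2B, the exchange factor of eIF2, has 5 genes here, of which 1 had a combined peak and 2 a pooled entry, against 11.1% and 42.6% of all protein-coding genes. The peak belonged to eIF2Bepsilon (FBgn0023512, chrX:1920166-1922874, minus strand), which encodes the catalytic subunit, and it covered chrX:1922706-1923109 at rank 1230. Replicates 1, 2 and 3 gave relative scores of 0.834, 1.17 and 1.13, averaging 1.04 ± 0.182 (SD, n = 3). The summit lay in the 107 bp between the facing TSSs of eIF2Bepsilon and Ocrl, a gene for a phosphoinositide phosphatase. It was 34 bp from the eIF2Bepsilon TSS and 73 bp from the Ocrl TSS. Replicate summits stood at -56, 1 and 40 from the eIF2Bepsilon TSS, and in replicate 1 the Ocrl TSS was the nearer, so the order of the neighbours is not fixed by these summits. The genes of the alpha, beta and delta subunits of eIF2B had no summit within 500 bp in any of the 5 lists, as was so for 32% of all protein-coding genes.

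The scaffold complex eIF3 has 16 genes here, of which 3 had a combined peak, 7 a pooled entry, 12 an entry in replicate 1, 7 in replicate 2 and 0 in replicate 3. Of all protein-coding genes 11.1%, 42.6%, 49.7%, 36.8% and 23.5% were credited in the same lists. The eIF3 counts are therefore not read as a result about the complex. All 3 combined peaks were in the lower part of the list, and none had an entry in replicate 3. The eIF3a peak (chr3R:4433738-4434141, in a gene of the minus strand at chr3R:4429798-4433895, FBgn0037249) ranked 1838, with a relative score of 1.20 in replicate 1 and 0.467 in replicate 2. Its summit lay 45 bp upstream of the eIF3a TSS and 25 bp from the facing TSS of CG1074, and the TSSs are 70 bp apart. CG1074 was the nearer in both replicates that held the peak.

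The eIF3h peak (chr2L:5052317-5052720, in a gene of the minus strand at chr2L:5051193-5053094, FBgn0022023) ranked 2377 and had relative scores of 0.823 in replicate 1 and 0.454 in replicate 2. Its summit was in an intron, 261 bp downstream of the nearest eIF3h TSS. The nearest other TSS, that of senju on the other strand, was 324 bp away. Replicates 1 and 2 each had a pair of entries here. In replicate 1 they stood at 300 and 21 from the eIF3h TSS, with relative scores of 0.823 and 0.72, and in replicate 2 at 286 and -5, with relative scores of 0.416 and 0.454. The pooled list likewise held a second entry at -5, at rank 3623, so both replicates held a summit within 21 bp of the TSS that the combined list does not hold.

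The eIF3c peak (chr2R:17665417-17665820, beside a gene of the plus strand at chr2R:17665678-17669275, FBgn0034258) ranked 2971 of 2988. Its relative score was 0.533 in replicate 1 and 0.721 in replicate 2. The summit lay 59 bp upstream of the eIF3c TSS, with the next TSS of another gene, the neuropeptide receptor gene CCHa1-R, 551 bp away. All eIF3 peaks were below a typical combined peak in replicate 2, and eIF3a alone was above it in replicate 1. That median comes from peaks found in all replicate lists, and the eIF3 peaks are not among them.

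The cap-binding and helicase group has 13 genes, of which 1 had a combined peak and 6 a pooled entry, against 11.1% and 42.6% of all protein-coding genes. That peak was at eIF4EHP (FBgn0053100, chr3R:24063077-24108960, minus strand), the translational repressor, covered chr3R:24108975-24109384 and ranked 201. Replicates 1, 2 and 3 gave relative scores of 3.56, 2.81 and 3.18, averaging 3.18 ± 0.376 (SD, n = 3), so the best overlapping entry was above the typical combined peak in all 3. Replicate 2, however, split the place into a pair of entries, at -183 and at -398 from the eIF4EHP TSS, and the value of 2.81 belongs to the one at -183. The other, at -398, lies closer to the combined summit (91 bp away, against 124 bp) and has a relative score of 0.588, which would bring the mean to 2.44. The combined summit lay 307 bp upstream of the eIF4EHP TSS and 69 bp from the TSS of CG18428, which faces it at 376 bp. CG18428 was the nearer in replicates 1 and 3, with summits at -301 and -292 from the eIF4EHP TSS, and eIF4EHP at the higher-scoring entry of replicate 2. Of the 7 genes for cap-binding proteins of the eIF4E family, eIF4EHP included, 3 had a pooled entry and 1, eIF4EHP, a combined peak. These counts are near the 42.6% and 11.1% of all protein-coding genes and are not read as a result about the family.

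eIF6, the factor that keeps the large subunit free, had the highest-ranked peak of all the initiation factor genes, at 110. It covered chr2R:23850256-23850553, beside a gene of the minus strand at chr2R:23849246-23850301 (FBgn0034915). Its relative scores of 4.55 (replicate 1), 5.55 (replicate 2) and 5.60 (replicate 3) averaged 5.23 ± 0.595 (SD, n = 3), and the lowest of them was above the highest of eIF4EHP. The peak ranked 152, 81 and 92 in the 3 replicate lists. The summit lay 124 bp upstream of the eIF6 TSS and 95 bp from that of asRNA:CR45928, a noncoding gene on the other strand, while the next protein-coding TSS, that of ytr, was 648 bp away. Replicate summits stood at -128, -93 and -126 from the eIF6 TSS, so the place hardly moved, and the noncoding TSS was the nearer in each.

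**Figure D2:**
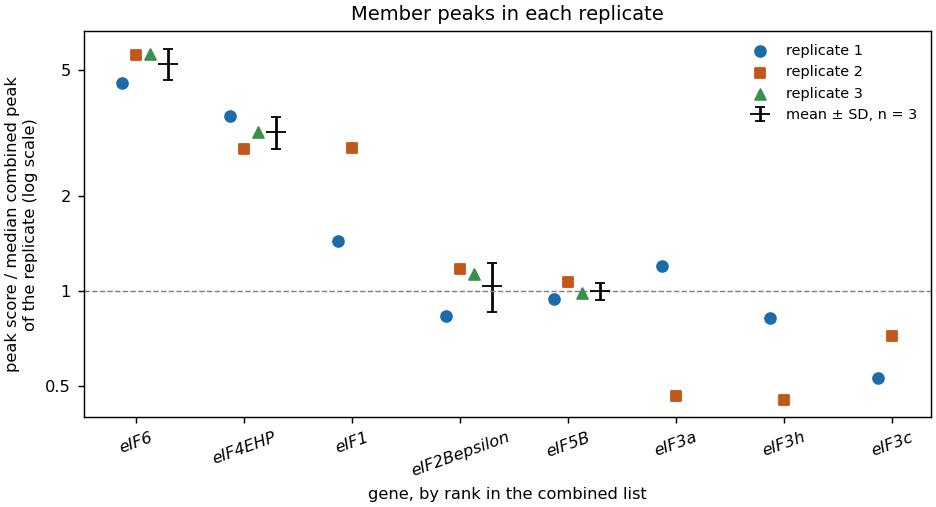
Relative score (log scale) of the 8 initiation factor peaks (best overlapping entry) in each replicate, with mean ± SD where all 3 replicates list the peak. The peak score is divided by the median, in the same replicate, of the combined peaks found in all 3 replicate lists. The eIF6 and eIF4EHP points lie between 2.81 and 5.60, although the entry of replicate 2 nearest to the eIF4EHP summit is lower (0.588, not drawn), those of eIF2Bepsilon and eIF5B lie near 1, and 4 peaks have no point for replicate 3.

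The 8 peaks thus spread over the whole combined list. Of them 2 ranked among the 300 highest, and their median rank was 1257, against 1264 for all protein-coding genes with a combined peak. All 3 replicate lists held 4 of the 8 peaks, each time among the 2988 highest entries. Of all combined peaks 76.7% were in all 3 lists and 50.3% had such a top entry in each. With top entries required of all 3 replicates, 4 of the 44 genes (9.09%) had a combined peak, against 5.46% of all protein-coding genes, and with replicate 3 left out of that requirement 5 (11.4%), against 7.76%, eIF1 being the gene added. The authors' −log10 q-value was 3.66, the ceiling of the list, for 6 of the 8 peaks, as for 2266 of the 2988 combined peaks, with 3.20 at eIF3h and 2.93 at eIF3c, so that value does not order the higher-ranked peaks.

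By position, 4 of the 8 peaks (50%) had the TSS of another gene nearer than that of the initiation factor, which was a protein-coding gene for 3 of them, against 24.6% of the 1547 protein-coding genes with a combined peak. Where a summit was credited only to the gene with the nearest TSS, 4 initiation factor genes (9.09%) kept a peak, against 8.53% of all protein-coding genes. This count keeps eIF5B, eIF2Bepsilon, eIF3c and eIF3h and drops eIF6, eIF4EHP, eIF1 and eIF3a. With protein-coding genes alone considered as neighbours, a choice made after seeing the data, eIF6 is kept as well, which gives 5 genes (11.4%), against 8.65%. Median summit position was -91.5 from the initiation factor TSS (quartiles -197 and -42.2), against -142 (-249 and -56) for all protein-coding genes with a combined peak. The farthest of the 8 summits was that of eIF1 at 327 bp, and the nearest combined summit beyond the 500 bp window was 681 bp from eIF2Bbeta. At each of the 8 peaks the nearest TSS of another gene is on the other strand, and at 7 of them its transcription runs away from the initiation factor gene. The exception is senju, whose TSS lies between the annotated start sites of eIF3h, so that the genes overlap.

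**Figure D3:**
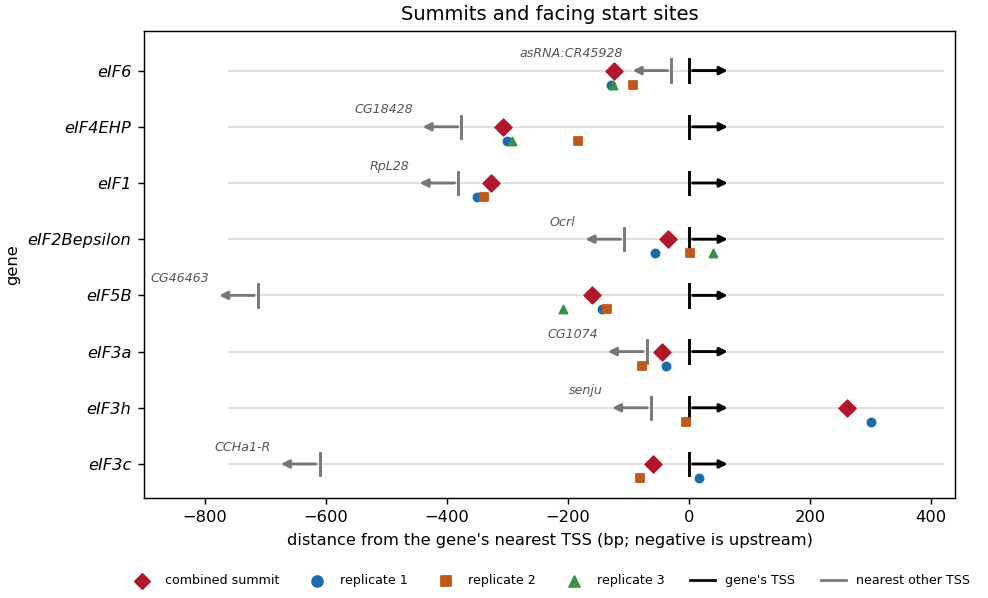
Distance in bp from the initiation factor gene's nearest TSS (black, transcription to the right) of the combined summit (diamond) and of the replicate summits, with the nearest TSS of another gene in grey. The summits of eIF4EHP, eIF1 and eIF3a sit nearer the facing gene in the combined list, at 69, 54 and 25 bp from it, and eIF3h is the only gene whose combined summit is downstream, at 261.

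Many of these genes start beside a gene of the other strand. A protein-coding partner whose TSS lies within 500 bp upstream on the other strand was found for 18 of the 44 genes (40.9%), against 27.3% of all protein-coding genes. Of the genes with a partner, 6 of 18 (33.3%) had a combined peak, against 19.3% of all protein-coding genes with a partner, and 12 (66.7%) had a pooled entry, against 58%. Of those without, 2 of 26 (7.69%) had a combined peak, against 7.99%, and 11 (42.3%) had a pooled entry, against 36.8%. A summit between facing TSSs cannot be given to either gene by position alone.

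A further 15 of the genes had a pooled entry and no combined peak. They were eIF1A, eIF2beta, eIF2gamma, eIF2A, eIF2D, eIF2Bgamma, eIF3b, eIF3f1, eIF3k, eIF3m, eIF4A, eIF4G2, eIF4H1, eIF4E1 and eIF4E6. Their best pooled entries ranked 4072 to 17790 (median 6996) of 30000. They are 34.1% of the 44 genes, against 31.6% of all protein-coding genes. All 15 had an entry in replicate 1, against 78.5% of the protein-coding genes with a pooled entry and no combined peak, 5 (33.3%) in replicate 2, against 58.3%, and 0 in replicate 3, against 26.8%. Their best pooled summits stood between -396 and 302 from the TSS, 8 of them within 100 bp of it, and no other gene's TSS was nearer, though eIF2gamma and eIF4G2 share a TSS position with Su(var)3-9 and CG33111. The helicase gene eIF4A had the highest-ranked pooled entry of the 15, a choice made after its values were seen. That entry ranked 4072 and stood 25 bp downstream of a TSS, 1370 bp from the nearest TSS of another gene, chic. Replicate 1 had its best entry at the same position, at rank 1926. The best entry of replicate 2, at rank 2672, was at another place. It stood at -197 from its nearest eIF4A TSS and 549 bp from the chic TSS. Replicate 3 had no entry within 500 bp.

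Another 9 genes, eIF5, eIF3d1, eIF3d2, eIF3e, eIF3g1, eIF3i, eIF3j, eIF4G1 and eIF4H2, had an entry in a replicate list only. It was in replicate 1 alone for 6 of them, in replicate 2 alone for 2 and in both for 1, at ranks from 9027 to 23673. These are 20.5% of the 44 genes, against 25.3% of all protein-coding genes. The last 12 genes (27.3%, against 32% of all protein-coding genes) had no summit within 500 bp in any list: eIF2alpha, eIF2Balpha, eIF2Bbeta, eIF2Bdelta, eIF3f2, eIF3g2, eIF3l, eIF4B, eIF4E3, eIF4E4, eIF4E5 and eIF4E7. The nearest pooled summit was 632 to 112248 bp from their TSSs (median 1974 bp), farthest for eIF4B, whose product aids the helicase. That gene stands far from others, with the nearest other protein-coding TSS 154328 bp away. For the eIF2 complex, which holds the initiator tRNA, the genes of its beta and gamma subunits had pooled entries and eIF2alpha had none. Those entries ranked 4759 and 6236, and among the replicates these genes had entries in replicate 1 only. A pooled entry was found for 42.6% of all protein-coding genes, so this is not read as a result about the complex. Of the 3 eIF3 subunits with a pair of genes here, eIF3f1 had a pooled entry, and eIF3d1, eIF3d2, eIF3f2, eIF3g1 and eIF3g2 had none.

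**Figure D4:**
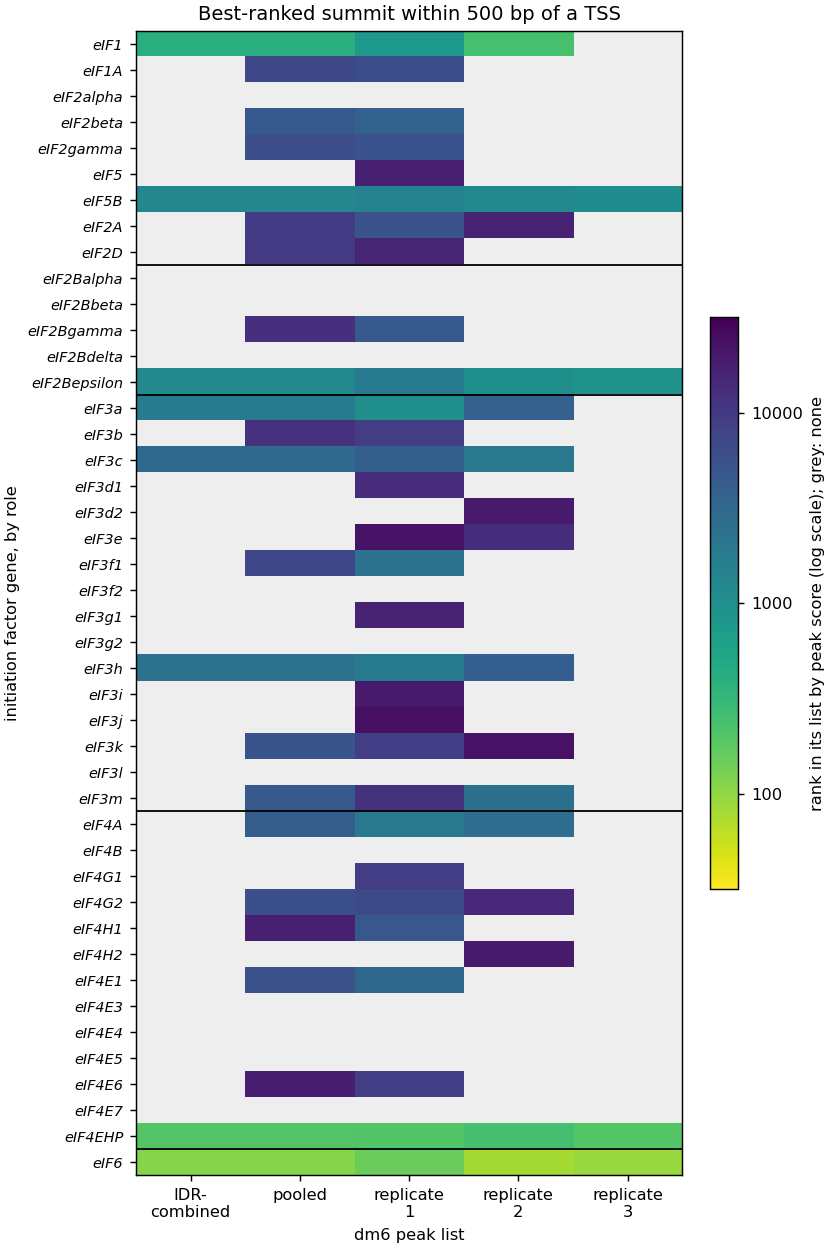
Rank by peak score (colour, log scale) of the best summit within 500 bp of a TSS for each of the 44 initiation factor genes (rows, grouped by role) in the 5 dm6 lists (columns), with grey where there is none. The replicate 3 column is filled for 4 genes, eIF5B, eIF2Bepsilon, eIF4EHP and eIF6, and the other combined peaks are filled for replicates 1 and 2 only.

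Some combined peaks lay within these genes but far from their start sites. eIF1A, which works with eIF1 in start codon selection, had peaks in its introns at ranks 828 and 961, 5086 and 2180 bp from its nearest TSS. The TSS of CG7142 was 262 bp from the peak at rank 828. An intron of eIF5B held a peak at rank 1210, 27800 bp from the TSS, and an intron of eIF4EHP one at rank 1233, 9815 bp from the TSS. These are not counted among the 8 genes above.

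Sequence was compared at the summits (50 bp on either side) and in promoters (250 bases before to 50 after the TSS with most annotated transcripts), on both strands. At the summits TATCGATA was found in 2 of the 8 initiation factor peaks, eIF1 and eIF3a, against 1.24% of all combined peaks, and no further peak gained ATCGAT, found in 4.22% of combined peaks. GGTCACAC stood in the eIF2Bepsilon peak and in 0.636% of combined peaks. CGATA, which BEAF-32 binds and which lies inside TATCGATA, was in the eIF1, eIF5B and eIF3a peaks and in 13.3% of combined peaks. GAGAG, the letters of the GAGA factor, was in the eIF3c peak and in 9.64%, and the E-box CACGTG in none of the 8 and in 1.07%. The sets are unlike, since all 8 peaks lie within 500 bp of a TSS and the combined list also holds peaks far from any. These shares therefore do not separate initiation factor genes from start sites in general. With 8 peaks, each match moves the share of these genes by a large step.

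CCCTA and GCGCTA were chosen after the data were seen, from the sequences most enriched over flanks at the 300 highest combined summits. Their excess over flanks therefore follows in part from that choice and is not separate support. The eIF6 and eIF4EHP peaks are among those 300. CCCTA was in the eIF6 and eIF5B peaks and in 11.9% of combined peaks, against 5.89% of flanks 500 bp away. GCGCTA was in the eIF1 peak and in 2.71% of combined peaks, against 1.82% of flanks. The eIF4EHP peak, second highest of the initiation factor genes, and the eIF3h peak matched none of the motifs searched.

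In the promoters TATCGATA was found for 12 of the 44 genes (27.3%), against 9.23% of all protein-coding genes, and ATCGAT for 22 (50%), against 23%. GGTCACAC was found for 7 (15.9%), against 7.77%, and CGATA for 27 (61.4%), against 47.4%. GAGAG was found for 7 (15.9%), against 30.2%, CACGTG for 3 (6.82%), against 4.2%, CCCTA for 13 (29.5%), against 18.4%, and GCGCTA for 1 (2.27%), against 6.44%. The share with the DNA replication-related element was thus above that of protein-coding genes at large and the share with GAGAG below it, and neither difference was tested. TATCGATA was in the promoters of 3 of the 8 genes with a combined peak and 9 of the 36 without, and ATCGAT in 5 of 8 and 17 of 36. The same split is not given for all protein-coding genes and was not tested. With 8 genes, these counts do not show whether either motif goes with a peak. CTTT starting within 2 bases of the annotated first base, the form of start that fly ribosomal protein genes use, was found at 0 of the 44 genes, against 2.18%, and the initiator letters TCAGT, placed with their A there, at 0 of 44, against 5.9%. A match is a description of the letters and does not show that a factor binds.

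**Figure D5:**
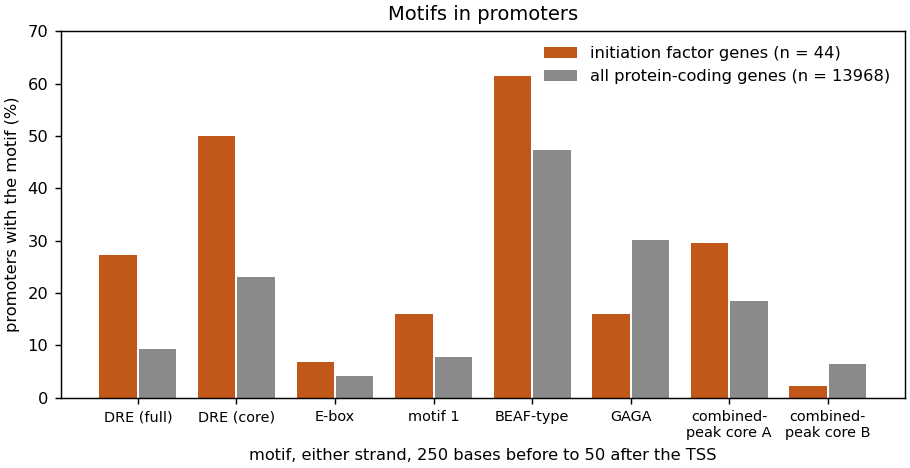
Percent of promoters (250 bases before to 50 after the TSS, either strand) that hold each motif, for the 44 initiation factor genes (left bar of each pair) and the 13968 protein-coding genes (right bar). The full and core forms of the DNA replication-related element stand at 27.3% and 50% of initiation factor genes against 9.23% and 23% of all, and GAGA at 15.9% against 30.2%.

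Other genes of translation were set beside the initiation factors from lists made by function. Of the 10 genes for elongation, termination and recycling factors 4 (40%) had a combined peak, against 11.1% of all protein-coding genes, and 8 a pooled entry, against 42.6%. The genes with a combined peak were eEF1gamma, at rank 265 with a relative score of 2.77 ± 0.376 (SD, n = 3), eEF1alpha1 at rank 1012, eEF5 at rank 1235 and eEF2 at rank 1647. Of the 10 genes only 1, eEF1gamma, had an entry in replicate 3. Relative scores in replicates 1 and 2 were 0.59 and 1.77 for eEF1alpha1, 0.834 and 1.09 for eEF5, and 0.926 and 0.552 for eEF2. All 4 had their summits close to their own TSS, at -28, -63, 5 and -3, and no other gene's TSS was nearer, unlike eIF6, eIF4EHP, eIF1 and eIF3a. Of the 21 cofactors and regulators of initiation 2 (9.52%) had a combined peak, near the 11.1% of all protein-coding genes. A pooled entry was found for 16 of the 21, a share above the 42.6% of all protein-coding genes. The 2 with a combined peak were larp, whose product binds RNA, at rank 139 with a relative score of 4.14 ± 0.289 (SD, n = 3), and Thor, the fly 4E-BP that sequesters eIF4E, at rank 2385 with relative scores of 0.751 in replicate 1 and 0.881 in replicate 2 and no entry in replicate 3. The difference between these lists and the initiation factor genes was not tested.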

How the data were processed

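Peak lists in the narrowPeak format for dm6 were used, made by the authors, per the labels and the deposited descriptions: 1 list per replicate, 1 pooled list and 1 combined list after IDR. The authors' deposited score (column 7) has no fixed range and is not scaled between lists, and the deposited −log10 q-value (column 9) reaches a ceiling, so peaks were ranked by score. The names of the aligner and the peak caller were not given in the sources used here. The dm3 lists were not used, and no depth or count is given, so no interval can be. Replicate numbers come from the labels.

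Summits (column 2 plus column 10) were compared, 1-based, with TSSs of the Ensembl release 115 annotation (BDGP 6.54, 18277 genes, 23694 distinct TSSs) and with the RefSeq release of the dm6 genome. A combined peak was matched to a replicate entry at an overlap of at least 1 bp, the best score being taken, and medians for scaling were 112.5, 74.88 and 56.25 in replicates 1, 2 and 3. Python 3.11.15, numpy 2.4.6, pandas 2.3.3 and matplotlib 3.10.9 were used. Crediting of genes was checked on simulated data, in which 100 of 100 summits placed within the window were credited and 0 of 100 placed beyond it.

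The genes, lists and motifs were chosen with earlier results of these data known, so no p-value is given and no list was tested. Named with full values is every initiation factor gene with a combined peak, then those without one but with entries in the pooled and all 3 replicate lists (there were 0), then by name those in no list, with the rest by counts, ranges and name, and other translation genes with a combined peak. Tor was matched to mTor through RefSeq synonyms. The motifs CCCTA and GCGCTA and the crediting of the nearest protein-coding gene alone were chosen after seeing the data. Alternatives were other windows, other peak thresholds, reciprocal overlap, each replicate left out, other scalings and a wider motif window.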

Additional observations from a re-analysis of the deposited data

How the results depend on the processing

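Of 53 alternative settings, 36 left the value within the margin set for it, 17 moved it and 0 reversed it. Counts and relative scores have no sign, so the absence of reversals says nothing about them. The wider motif window could only keep or add matches. The count of 8 initiation factor genes with a combined peak (18.2%, against 11.1% of all protein-coding genes) fell to 5 within 250 bp of a TSS (11.4%, against 8.2%), to 5 among the combined peaks above the list's median score (11.4%, against 6.34%), to 4 where the nearest gene alone was credited (9.09%, against 8.53%), to 5 where the nearest protein-coding gene alone was (11.4%, against 8.65%, chosen after seeing the data), to 4 where top entries of all 3 replicates were required (9.09%, against 5.46%) and to 3 with a reciprocal overlap of 50% (6.82%, against 3.53%). It was 9 within 1000 bp (20.5%, against 13.6%), where eIF2Bbeta enters at 681 bp. With each replicate left out in turn, and top entries required of the others, it was 4 to 5, the 5 being without replicate 3, which regains eIF1. Apart from the 1000 bp window, each of these settings moved the count beyond its margin. Each of them keeps a subset of what the combined list credits, so the count can only fall. The replicate 1 count of 30 became 9 in its 2988 highest entries, the replicate 2 count of 16 became 8 there and 10 in its 10000 highest, and the replicate 3 count of 4 became 8 within 1000 bp. The pooled count stayed between 20 and 27, and the median position was -52 from the most upstream TSS. Of 20 settings for relative scores, 4 moved the value by more than the replicate SD: eIF6 (6.02), eIF4EHP (3.64) and eIF5B (1.14) when scaled by the top entries, and eIF4EHP (2.44) when the nearest summit within 250 bp was taken. Depth is unknown and there is no second group, so peaks are not set against a background of the same embryos. No paired analysis was possible because there is 1 group and no comparison between groups.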
